A study of Mus musculus with 24 samples.

Results

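The maturation of sciatic nerve between postnatal day 5 (P5) and 4 months was followed in S63del/Chop null mice, with the arrays labelled S63del/Chop null at 4 months (2 arrays) set against those labelled S63del/Chop null at P5 (2 arrays). These are 4 of the 24 arrays of a study that profiled whole sciatic nerve from 4 genotypes at 3 ages. Total RNA of each nerve sample was hybridised to an Affymetrix mouse array, and 2 arrays per group are labelled as biological replicates. Whether a replicate is 1 animal or a pool is not stated in the labels. The S63del/Chop null mice carry S63del, a mutation used as a mouse model of Charcot-Marie-Tooth 1B neuropathy, and lack Chop (Ddit3). The other groups used here are S63del mice, which carry the mutant and keep Chop, Chop null mice, which lack Chop and carry no mutant, and wild-type (WT) mice, each at 4 months and P5 with 2 arrays per age. S63del/Chop null nerve at P28 (2 arrays) served as the age in between. Per the labels, the perineurial sheath was removed before freezing. According to the study's design text, myelination has just begun at P5 and is near its peak at P28, and 4 months is the age at which the loss of Chop had clearly eased the motor and structural defects.

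Schwann cells wrap axons of the peripheral nerve and, once they leave the cell cycle, build the myelin sheath from a few very abundant proteins and from cholesterol and galactolipids. The mutant S63del protein is retained in the endoplasmic reticulum (ER), where misfolded protein triggers the unfolded protein response, which raises chaperones, degradation factors and amino acid enzymes. CHOP is a transcription factor at the end of the branch of that response that runs through the kinase PERK and the factor ATF4.

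Values are log2 expression, a difference is the 4-month mean minus the P5 mean on that scale ± SE from limma, and array values are given for replicate 1 and then replicate 2. A gene was called at a Benjamini-Hochberg adjusted p under 0.05 among 12393 genes. These p-values measure only the spread between the labelled replicates, and with 2 arrays per group it is the array number that bounds how precise a mean can be.

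Ddit3, the deleted gene, read 6.70 and 6.76 in S63del/Chop null nerve at 4 months and 6.93 and 6.82 at P5, close to Chop null nerve (6.75 and 6.8 at 4 months and 6.85 and 6.6 at P5). It read 9.21 and 9.0 at 4 months and 9.59 and 9.52 at P5 in S63del nerve, and 9.09 and 8.29 and 7.66 and 7.61 in WT nerve. This checks the Chop part of the labels only, and the S63del part was not checked here. The Schwann cell marker Sox10 was bright at both ages, with 11.08 and 11.02 at 4 months and 10.80 and 10.60 at P5, a difference of 0.35 ± 0.17 that missed the threshold (adjusted p = 0.11). Sox10 was called by limma with only the 16 arrays of P5 and 4 months (adjusted p = 0.0400) and with array weights (adjusted p = 0.0415). S100b, another marker of this lineage, was called, with 11.96 and 11.97 at 4 months against 9.96 and 9.80 at P5 (2.09 ± 0.12, adjusted p = 5.73e-10). Array medians lay between 6.84 and 7.03 over the 24 arrays, and the replicates of S63del/Chop null nerve correlated at 0.994 at 4 months and 0.996 at P5 over all probe sets. The 3′ minus 5′ signal of Gapdh, a sign of RNA quality, was 0.355 and 0.545 at 4 months and -0.175 and -0.191 at P5, and that of Actb was 0.871 and 1.09 at 4 months and 0.345 and 0.42 at P5. The 5′ control probe set of 18S ribosomal RNA read 4.41 and 4.17 at 4 months and 12.7 and 8.35 at P5. The part of these signs in the differences below was not tested.

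Of the 12393 genes, 4861 (39.2%) were called between the ages, 2665 (21.5%) higher and 2196 (17.7%) lower at 4 months. The change exceeded 2-fold in 1037 of the higher (8.37% of all) and 625 of the lower genes (5.04%), and 4-fold in 310 and 170. The arrays of the ages did not overlap for 72.1% of all genes, with 4 months above P5 in 37.8% and below it in 34.4%, and the median difference over all genes was 0.01. The array medians are close to one another in the deposited values, so a shift of the whole distribution could not be seen. Leaving out any one of the 4 arrays gave 3782 to 4033 calls.

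The 15 largest rises were led by Cyp2e1, Inmt and Aldh1a1. Cyp2e1, a cytochrome P450 that oxidises ethanol and other small molecules, read 12.61 and 12.53 in 4-month nerve and 4.49 and 4.29 in P5 nerve, a difference of 8.18 ± 0.14 (adjusted p = 1.05e-16). Its P5 arrays lie near the lower edge of the signal (the 5th percentile of an array lies between 3.56 and 4.12), so the size of the rise is imprecise. Inmt, an N-methyltransferase of indoleamines, read 11.64 and 11.65 at 4 months and 4.93 and 4.35 at P5 (7.01 ± 0.24, adjusted p = 1.07e-12). Aldh1a1, which makes retinoic acid from retinaldehyde, read 11.87 and 11.90 at 4 months and 4.64 and 5.62 at P5 (6.76 ± 0.23, adjusted p = 1.07e-12). For all 3 genes the 4-month arrays lay within 0.1 of each other and far above the P5 arrays. Thrsp, a regulator of fat synthesis, read 12.06 and 10.39 at 4 months and 4.56 and 4.94 at P5 (6.48 ± 0.58), with the 4-month replicates well apart. The others among the 15 largest rises were Amy1 (5.93), Serpina1b (5.88), Tmem45b (5.5), Ces1d (5.34), Retnla (5.28), Gpm6a (5.24), Cpxm2 (4.87), Orm1 (4.78), Plin4 (4.74), Cdo1 (4.72) and Cidec (4.72). Amylase Amy1, antitrypsin Serpina1b, carboxylesterase Ces1d and orosomucoid Orm1 have close paralogues, so their probe sets may read several copies.

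**Figure D1:**
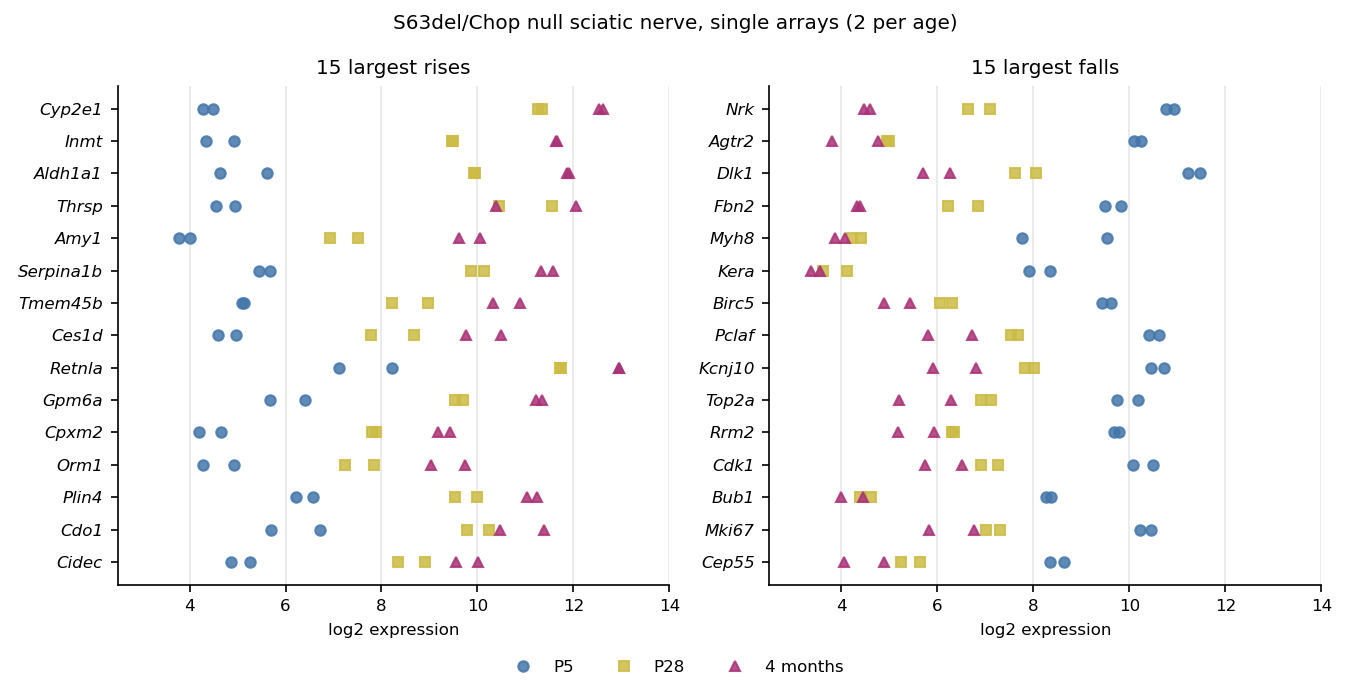
Log2 expression (x axes) of the 15 genes with the largest rise and the 15 with the largest fall between P5 and 4 months in S63del/Chop null nerve; each point is 1 array, 2 per age, circles P5, squares P28 and triangles 4 months. The genes were picked from called genes whose 4-month and P5 arrays do not overlap, so these points lie apart by that rule. Over all genes 72.1% did not overlap. Most P28 points lie in between.

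The 15 largest falls were led by Nrk, Agtr2, Dlk1 and Fbn2. Nrk, a kinase of embryonic and perinatal tissues, read 4.47 and 4.59 in 4-month nerve and 10.93 and 10.77 in P5 nerve (-6.32 ± 0.16, adjusted p = 4.31e-14). Agtr2, the type 2 angiotensin receptor, read 4.76 and 3.81 at 4 months and 10.10 and 10.25 at P5 (-5.89 ± 0.26, adjusted p = 3.32e-11). Fbn2, the fibrillin of developing microfibrils, read 4.38 and 4.33 at 4 months and 9.83 and 9.5 at P5 (-5.31 ± 0.20, adjusted p = 4.70e-12). Nrk, Agtr2 and Fbn2 all ended near the lower edge of the signal at 4 months, which limits how exact their falls are. Kera (-4.67), the corneal and connective-tissue proteoglycan keratocan, Kcnj10 (-4.23), an inward-rectifier potassium channel, and Myh8 (-4.68), the perinatal myosin heavy chain of muscle, were also among the 15.

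Genes of cell division fell almost as a block. Of the 44 measured genes of the cell cycle and DNA replication list, 43 fell and 1 rose, 40 of them by more than 2-fold, with a median difference of -2.81 against 0.01 for all genes. Mki67, the proliferation antigen Ki-67, read 5.84 and 6.75 at 4 months and 10.22 and 10.44 at P5 (-4.04 ± 0.29, adjusted p = 6.74e-09). Cdk1, the kinase that drives mitosis, read 5.75 and 6.5 at 4 months and 10.08 and 10.50 at P5 (-4.16 ± 0.22, adjusted p = 2.36e-10). In both genes replicate 2 at 4 months was brighter than replicate 1 and still more than 3 log2 units below either P5 array. Topoisomerase Top2a (-4.22), survivin Birc5 (-4.37), ribonucleotide reductase subunit Rrm2 (-4.18), checkpoint kinase Bub1 (-4.09), midbody protein Cep55 (-4.02) and the replication clamp partner Pclaf (-4.24) fell alike, and the replication helicase subunit Mcm2 fell by 2.43. The 1 riser was the tubulin-binding protein Stmn1 (0.88), named after its value was seen. In a bulk sample, fewer cells of a kind and less RNA per cell cannot be told apart, so these values do not separate fewer dividing cells from lower transcript levels within them.

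The Cdk1 promoter is shown because the fall of mitotic genes was the most uniform of the list results and many such promoters carry the cell cycle genes homology region TTTGAA. It is the 250 bases before the start of transcription in RefSeq on GRCm38.p6, chr10:69352913-69353162, minus strand, with both TTTGAA matches in capitals, 71 to 66 and 15 to 10 bases upstream.
Cdk1: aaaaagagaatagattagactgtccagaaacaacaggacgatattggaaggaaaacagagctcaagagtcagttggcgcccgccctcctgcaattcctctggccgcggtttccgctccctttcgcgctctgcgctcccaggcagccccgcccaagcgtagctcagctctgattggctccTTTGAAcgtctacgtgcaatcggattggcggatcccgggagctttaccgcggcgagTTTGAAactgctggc
TTTGAA on either strand was found in 13 of the 36 promoters of the cell cycle list that had an entry (36.1%), against 16% of all 32851 promoters, and CCAAT in 28 of 36 (77.8%) against 33.8%. A match describes these letters only.

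Genes typical of growing and embryonic tissue fell as well. Of 17 imprinted growth genes, 13 fell and 2 rose (median -2.0). Dlk1, a membrane ligand of growing tissues, read 6.27 and 5.71 at 4 months and 11.47 and 11.23 at P5 (-5.36 ± 0.17, adjusted p = 5.83e-13), and Igf2, the fetal growth factor, read 9.88 and 8.62 at 4 months and 12.84 and 12.80 at P5 (-3.57 ± 0.30, adjusted p = 4.18e-08). The 4-month replicates of Igf2 differed by more than 1 log2 unit, both far below P5. Cdkn1c (-2.57), a cyclin-dependent kinase inhibitor, Plagl1 (-2.17), a zinc finger factor, and the non-coding RNA Meg3 (-2.17) also fell, while Nnat (2.91) and Sgce (0.77), named after their values were seen, rose. In the list of chromatin and embryonic RNA-binding genes 10 of 15 fell and none rose, led by the RNA-binding protein Igf2bp3 (-3.28), the chromatin protein Hmga2 (-3.16), the remodelling subunit Smarcc1 (-2.16) and the histone methyltransferase Ezh2 (-1.61).

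Of 15 measured myelin protein genes 5 rose and 3 fell, with a median of -0.02. The falls (20%) were near the 17.7% of all genes. Pmp22, a structural protein of compact myelin, read 14.18 and 14.16 at 4 months and 13.98 and 13.94 at P5, a difference of 0.21 ± 0.09 that missed the threshold (adjusted p = 0.066). The same difference was called by limma under several alternatives, among them array weights (adjusted p = 0.019) and the trend and robust options (adjusted p = 0.0025). Mbp, myelin basic protein, read 14.10 and 14.03 at 4 months and 13.76 and 13.63 at P5 (0.37 ± 0.09, adjusted p = 0.0032), but its probe sets disagreed and the mean of all of them gave -0.20. Mag, a myelin adhesion protein of the layer facing the axon, read 9.58 and 9.47 at 4 months and 10.76 and 10.63 at P5 (-1.18 ± 0.23, adjusted p = 4.95e-04). The largest fall of the list was Gjc3 (-3.49 ± 0.31), connexin 29, and the rises were small, such as Plekhb1 (0.74) and the tetraspanin Cd9 (0.60). Of 13 galactolipid and sphingolipid enzymes 6 rose and 1 fell: the ceramide-pathway enzymes Degs2 (1.75), Fa2h (0.82) and Cers2 (0.71) rose, and Gal3st1 (-1.61), which makes sulfatide, fell. Without replicate 1 at 4 months 3 of the 13 rose.

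The list of 22 transcription factors that mark Schwann cell stages had 8 falls and 4 rises, and 10 did not pass (median -0.22). The rises (18.2%) were near the 21.5% of all genes. Pou3f1 (Oct6), the factor of the promyelinating stage, read 8.56 and 9.94 at 4 months and 11.19 and 11.11 at P5 (-1.90 ± 0.35, adjusted p = 2.99e-04), with the 4-month replicates more than 1 log2 unit apart. Pou3f2 (Brn2, -1.91), Sox2 (-1.60), the inhibitor Id2 (-2.34) and Zeb2 (-1.84) fell too, and Id3 (1.67) rose, with 2 rises in the list without P5 replicate 1. Egr2, which drives myelin genes, differed by -0.27 ± 0.18 and missed the threshold (adjusted p = 0.26). Jun, a factor of immature and injured Schwann cells, fell by 0.83, a call lost without P5 replicate 1 or without 4-month replicate 1.

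The genes of immature and repair Schwann cells showed 9 falls and 3 rises among 21 (median -0.23), and 1 rise without P5 replicate 2 or without 4-month replicate 2. Ngfr, the p75 neurotrophin receptor, read 8.34 and 8.76 at 4 months and 10.43 and 10.03 at P5 (-1.67 ± 0.20, adjusted p = 3.21e-06). The factors Sox4 (-2.28) and Sox11 (-1.54) and the growth-cone protein Gap43 (-1.56) fell by similar amounts. Of 19 genes of the node and the axon-glia junction 7 fell (36.8%) and 5 rose (26.3%), against 17.7% and 21.5% of all genes. The cell adhesion molecule Cadm3 (Necl1) of the internode rose (2.36), and the potassium channels Kcnj10 and Kcna1 (-2.41) and the contactin Cntn1 (-2.07) fell.

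Fat synthesis and cholesterol synthesis did not move together. In fatty acid synthesis and desaturation 12 of 17 genes rose and 2 fell (median 0.79), among them stearoyl-CoA desaturase Scd1 (3.24 ± 0.20), malic enzyme Me1 (2.65) and the desaturase Fads1 (1.54) beside Thrsp. Of 19 cholesterol synthesis genes 1 rose and 5 fell (median -0.20), with falls of Fdps (-0.93), Mvd (-0.85) and Mvk (-0.74), enzymes of the mevalonate and isoprenoid steps. Squalene epoxidase Sqle read 10.18 and 9.44 at 4 months and 10.02 and 9.97 at P5 (-0.18 ± 0.17, adjusted p = 0.46). Replicate 1 at 4 months was the higher for Sqle, as it was for lanosterol synthase Lss (8.99 and 7.98 at 4 months and 8.32 and 8.05 at P5). Without it, 10 of the 19 cholesterol genes fell and none rose, without 4-month replicate 2 only 2 fell and 4 rose, and without either P5 array 3 fell. The call of Hmgcs1 (0.37) was lost without that array, and that of Fdps without 4-month replicate 2. Of the 4 arrays at 4 months and P5, 4-month replicate 1 was also the one with brown fat transcripts, described with the cell-type markers below.

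Of 25 ER chaperone and folding genes 15 fell and 2 rose (median -0.51). Sdf2l1, a small ER-resident chaperone partner, read 6.97 and 7.28 at 4 months and 9.41 and 9.21 at P5 (-2.19 ± 0.20, adjusted p = 1.25e-07). The disulfide isomerases Pdia4 (-1.42) and Pdia6 (-1.41) and the prolyl isomerase Fkbp11 (-1.76) fell as well. Hspa5 (BiP), the main ER chaperone, read 12.29 and 12.56 at 4 months and 13.11 and 13.21 at P5 (-0.73 ± 0.21, adjusted p = 0.011), and its call was lost without P5 replicate 2 or without 4-month replicate 1. In ER-associated degradation and translocation 14 of 25 fell and 1 rose (median -0.41), led by Derl3 (-2.40), Fbxo2 (-1.64), Ssr2 (-1.44) and the translocon channel Sec61a1 (-1.08). Xbp1 (-0.10 ± 0.13, adjusted p = 0.61) missed the threshold.

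Of 28 amino acid and stress targets of ATF4, 10 fell and 6 rose (median -0.20), the rises (21.4%) near the 21.5% of all genes. Chac1, which degrades glutathione, read 5.47 and 5.91 at 4 months and 7.68 and 7.22 at P5 (-1.76 ± 0.17, adjusted p = 3.28e-07), and Asns, asparagine synthetase, read 8.83 and 8.73 at 4 months and 9.76 and 9.63 at P5 (-0.91 ± 0.15, adjusted p = 9.14e-05). The amino acid transporter Slc7a3 fell by 1.68, while the stress factor Nupr1 (1.5) and the bZIP factor Cebpg (1.10) rose, and the pseudokinase Trib3 (-0.14 ± 0.18, adjusted p = 0.63) missed the threshold. Of 10 genes linked to CHOP, a gene absent in both groups, 3 fell and 1 rose, the largest change being Bcl2l11 (-1.70), a death-promoting BCL2 relative. Ero1a (0.61) is the 1 riser and lost its call with the mean of its probe sets, and Ppp1r15a (-0.59) lost its call without P5 replicate 1 or 4-month replicate 1. Cytosolic aminoacyl-tRNA synthetases, which charge tRNAs, fell in 16 of 18 with no rise (median -0.79), for example Farsa (-1.55), Sars (-1.05) and Gars (-1.0).

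Heat shock proteins had 10 falls and 3 rises among 16 (median -0.55), with 6 falls without P5 replicate 1. The inducible HSP70 gene Hspa1a read 8.16 and 9.0 at 4 months and 11.27 and 11.05 at P5 (-2.58 ± 0.30, adjusted p = 2.29e-06), and the small heat shock protein gene Hspb1 read 11.90 and 11.81 at 4 months and 12.88 and 12.50 at P5 (-0.84 ± 0.16, adjusted p = 4.52e-04). Hspa1a and Hspa1b are nearly identical, so their signals may be shared. The mitochondrial chaperonins Hspd1 (-0.89) and Hspe1 (-0.91) fell. Of 28 proteasome genes 22 fell and 3 rose (median -0.63). Psma4 (-1.40) and Psmb5 (-0.99) of the constitutive particle fell, and the immunoproteasome subunit Psmb8 (1.56) rose. Of 23 cytosolic ribosomal protein genes 11 fell, Rpl14 the most (-1.36), and none rose, with 4 to 6 falls when any one of the 4 arrays was left out.

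Most collagens fell, and other matrix genes moved both ways. Of 29 collagen and collagen-modifying genes 17 fell and 4 rose (median -0.48). Col1a1, the main fibrillar collagen chain, read 12.12 and 12.18 at 4 months and 13.48 and 13.12 at P5 (-1.15 ± 0.14, adjusted p = 3.06e-06), and Col3a1 fell by 0.46. Col9a1 (-3.15) and Col5a1 (-1.58) fell further, and the cross-linking enzyme Lox rose (1.83). Without P5 replicate 1, 11 of the 29 fell and 2 rose. Of 30 other matrix proteins 13 rose and 9 fell: the leucine-rich proteoglycans Omd (2.90) and Prelp (2.80) rose, and Fbn2 and the microfibril protein Mfap2 (-2.57) fell. Of 19 integrins and laminins 4 rose and 7 fell, with Itgb4 (3.16), part of a laminin receptor of mature Schwann cells, Itgb5 (1.78) and Lamb2 (1.48) higher and Itgb3 (-2.17) lower, with 4 falls without P5 replicate 1. The 4 rises among integrins and laminins (21.1%) were near the 21.5% of all genes. Matrix proteases and their inhibitors had 9 rises and 7 falls among 21, for example Timp4 (2.34) and Adam12 (-1.46).

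**Figure D2:**
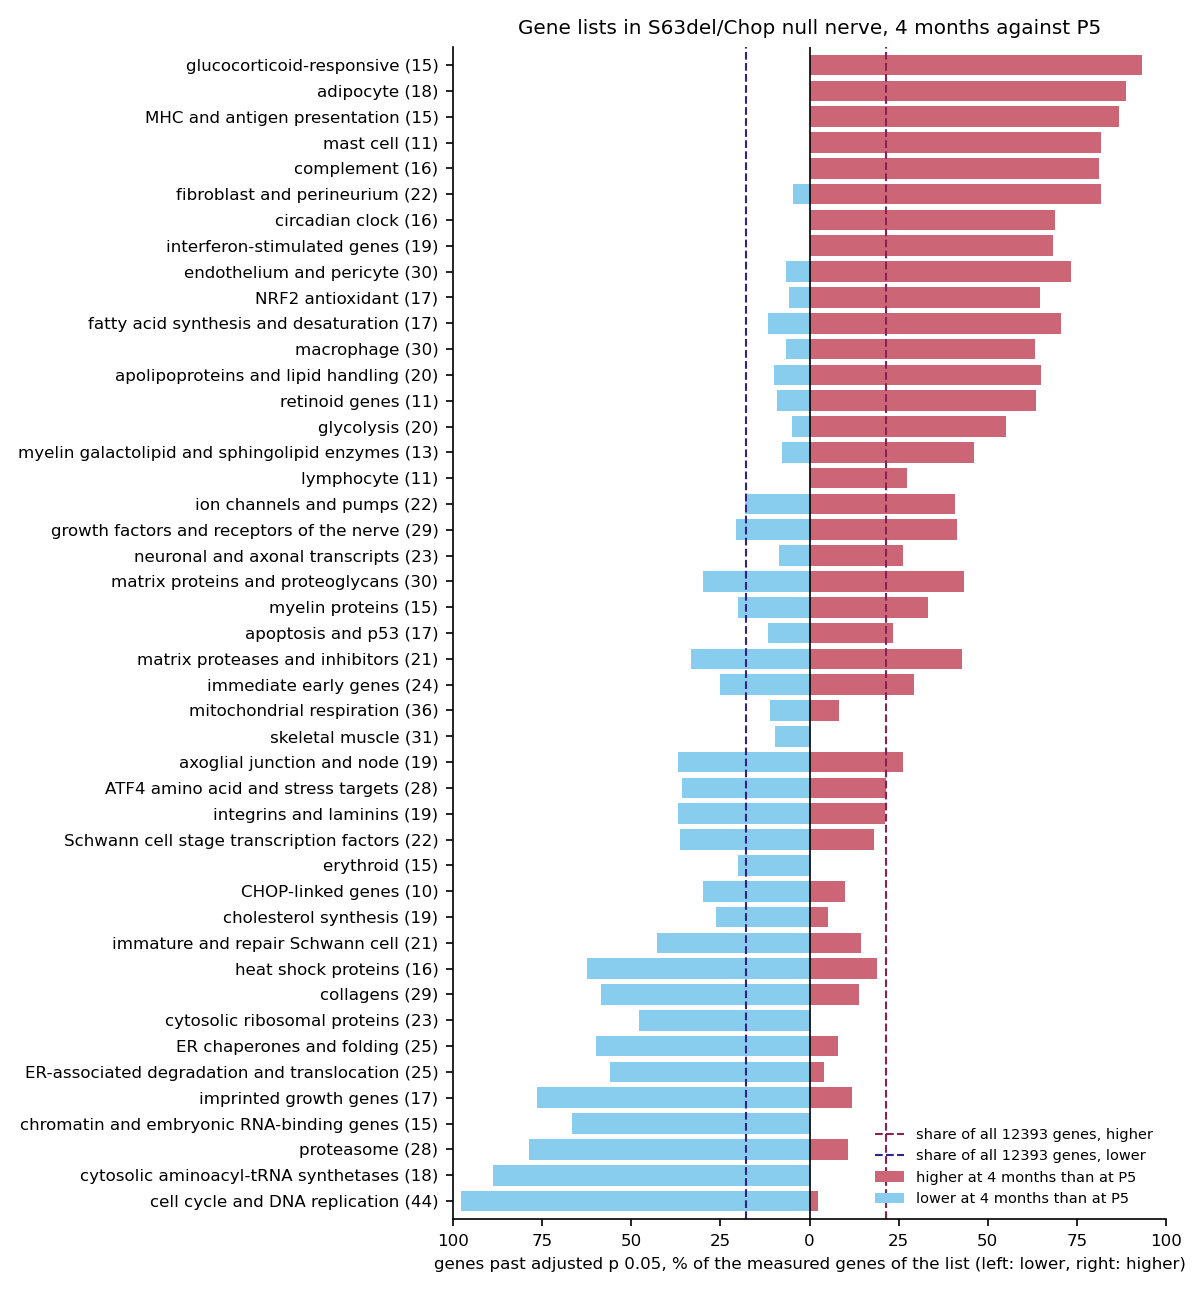
Share of each gene list's measured members (number in brackets) that were called higher (bars to the right) or lower (bars to the left) at 4 months than at P5 in S63del/Chop null nerve, in %; dashed lines mark the shares over all 12393 genes, 21.5% higher and 17.7% lower. Cell cycle genes (43 of 44 lower) and glucocorticoid-responsive genes (14 of 15 higher) lie at the ends.

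Of 22 fibroblast and perineurium genes 18 rose and 1 fell (median 1.57), although the labels state that the perineurial sheath was removed. The glucose transporter Slc2a1, abundant in perineurium, read 12.23 and 11.99 at 4 months and 9.63 and 9.5 at P5 (2.54 ± 0.15, adjusted p = 7.08e-10), and Itgbl1 (2.49), Msln (3.58) and Dpep1 (3.56) rose as well. Clec3b (-0.77), named after its value was seen, fell. Among the fibroblast markers Col1a1 (-1.15) and Col3a1 (-0.46) fell, while Pdgfra (0.77) and Dcn (0.85) rose. Of 30 endothelial and pericyte genes 22 rose and 2 fell (median 0.70). Abcb1a, the P-glycoprotein pump of barrier vessels, read 10.51 and 10.38 at 4 months and 5.84 and 5.87 at P5 (4.59 ± 0.19, adjusted p = 1.12e-11), with the organic anion carrier Slco1a4 (2.71), von Willebrand factor Vwf (2.05) and the smooth muscle protein Tagln (2.06) also higher.

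Of 11 mast cell genes 9 rose and none fell (median 1.46): the protease Mcpt4 read 9.57 and 9.88 at 4 months and 5.62 and 6.07 at P5 (3.87 ± 0.25, adjusted p = 1.95e-09), with Cpa3 (3.79) and Cma1 (3.03) close to it. Of 30 macrophage genes 19 rose and 2 fell (median 0.65), 12 rising without 4-month replicate 2, with Retnla, a secreted product of tissue macrophages and fat, at 12.94 and 12.95 at 4 months and 8.22 and 7.12 at P5 (5.28 ± 0.49). The lipopolysaccharide co-receptor Cd14 (1.52) and the lectin Cd209a (2.35) rose too, and Aif1, another macrophage marker, differed by -0.21 ± 0.24 (adjusted p = 0.57). Antigen presentation rose in 13 of 15 genes (median 1.44), for example H2-DMa (3.08), H2-K1 (1.60) and H2-D1 (1.52), complement in 13 of 16 (median 1.57), for example C2 (2.43), Cfb (2.14) and the inhibitor Serping1 (1.83), and interferon-stimulated genes in 13 of 19 (median 0.71), for example Ifit3 (2.79), with no fall in any of the 3 lists. Of 11 lymphocyte genes 3 rose, a share near the 21.5% of all genes, and each of the 3 calls was lost under an alternative. The immunoglobulin joining chain Jchain read 4.94 and 7.75 at 4 months and 3.91 and 3.58 at P5 (2.60 ± 0.60), and its call was lost without 4-month replicate 2, Ighm (1.97) lost its call with the mean of its probe sets, and Cd2 (0.63) without P5 replicate 1 or 4-month replicate 1.

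Fat cell genes rose in 16 of 18 with no fall and a median of 2.92. The adipocyte hormone Adipoq read 13.33 and 12.96 at 4 months and 8.28 and 9.12 at P5 (4.44 ± 0.32, adjusted p = 5.80e-09), and the lipid droplet protein Cidec read 10.02 and 9.55 at 4 months and 4.87 and 5.27 at P5 (4.72 ± 0.30). The mean log2 level of the 18 genes was 11.1 and 10.1 at 4 months and 7.42 and 7.6 at P5. Ucp1, the uncoupling protein of brown fat, stood at 10.6 in replicate 1 and 4.14 in replicate 2 at 4 months, and at 4.37 and 4.05 at P5; Cidea, another brown fat gene, stood at 9.5 and 4.73 at 4 months and 4.69 and 4.41 at P5. Thus replicate 1 at 4 months carried both transcripts, replicate 2 at 4 months and both P5 arrays did not, and the part of fat in the lipid genes above was not tested.

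Skeletal muscle genes were present at both ages. Of 31 genes none rose and 3 fell (9.68%, against 17.7% of all genes), and the median difference was 0.48. Myh8, the perinatal myosin heavy chain, fell, with 3.86 and 4.07 at 4 months and 9.53 and 7.76 at P5. The others were Myh3 (-1.90), the embryonic one, and Chrna1 (-0.93), a subunit of the muscle acetylcholine receptor. Myh4 (3.25, adjusted p = 0.12) and Pvalb (2.95, adjusted p = 0.058) missed the threshold by limma, and Pvalb was called under some alternatives. Chrna1 was no longer called when any one of the 4 arrays was left out, and without P5 replicate 1 other muscle genes were called, 2 as higher. The mean level of the muscle list was 8.08 and 7.6 at 4 months and 8.01 and 6.90 at P5, so P5 replicate 2 held the least muscle signal; in WT nerve at 4 months it was 6.0 and 6.3. Erythroid genes averaged 5.20 and 5.26 at 4 months and 5.46 and 5.49 at P5, with 3 falls among 15 (20%), near the 17.7% of all genes. Of 23 neuronal and axonal transcripts 6 rose and 2 fell, near the shares over all genes (21.5% and 17.7%) for the rises and below them for the falls. Nsg2 (3.15), the vesicle protein Snap25 (2.32) and Stmn2 (1.89) rose, and the tubulin Tubb3 (-2.77) fell. Snap25 read 3.34 and 3.32 at P5, at the lower edge of the signal, so the size of its rise is imprecise. The Y-linked genes Kdm5d (4.15 and 5.55 at 4 months and 6.22 and 6.74 at P5) and Eif2s3y (5.70 and 7.01 at 4 months and 7.82 and 8.16 at P5) were lower at 4 months, both calls being lost without 4-month replicate 1. Uty (-0.66, adjusted p = 0.20) and Xist (0.69, adjusted p = 0.30), the 2 other sex-linked genes measured, missed the threshold by limma. With S63del/Chop null arrays only, Xist was called by limma (adjusted p = 0.0037). The sex of the animals is not stated in the labels, and its part in the results was not tested.

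**Figure D3:**
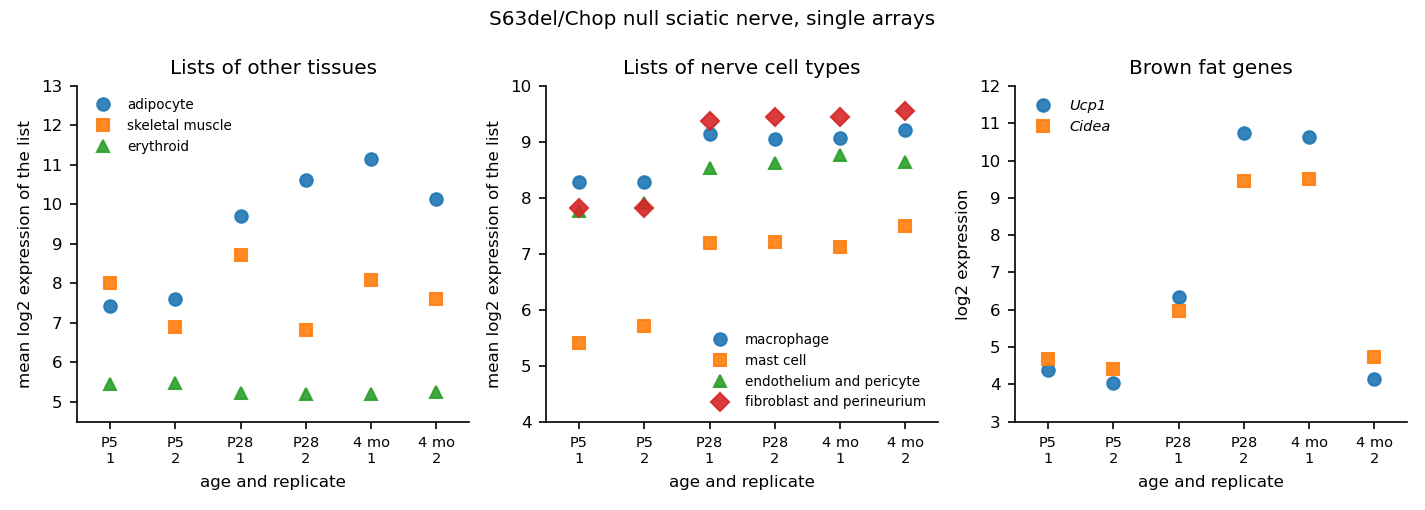
Mean log2 expression of marker lists in each S63del/Chop null array (left, other tissues; middle, nerve cell types) and log2 expression of the brown fat genes Ucp1 and Cidea (right), by age and replicate. Adipocyte genes are above 10 in both 4-month arrays and below 8 in both P5 arrays, and Ucp1 is high in 1 of the 2 arrays at 4 months and in 1 of the 2 at P28.

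Hormone-responsive and clock genes rose together. Of 15 glucocorticoid-responsive genes 14 rose and none fell (median 1.52): Tsc22d3 (GILZ), an anti-inflammatory target of the glucocorticoid receptor, read 11.44 and 11.57 at 4 months and 7.89 and 7.76 at P5 (3.68 ± 0.23, adjusted p = 1.18e-09), and the zinc finger factor Zbtb16 (4.44), the sulfotransferase Sult1a1 (4.10) and the pyruvate dehydrogenase kinase Pdk4 (3.74) rose with it. Of 16 clock genes 11 rose and none fell (median 1.32): Per2, a repressor of the clock, read 7.54 and 8.15 at 4 months and 4.65 and 4.58 at P5 (3.23 ± 0.25, adjusted p = 1.35e-08), and Hlf, a clock output factor, read 8.11 and 8.67 at 4 months and 5.15 and 5.16 at P5 (3.23 ± 0.17, adjusted p = 2.26e-10). Tef (1.48) has probe sets that disagree, and their mean gave -0.01. The hour of dissection is not stated in the labels, so its part in these genes was not tested. Immediate early genes had 7 rises (29.2%) and 6 falls (25%) among 24, against 21.5% and 17.7% of all genes. Zfp36 (1.60), Klf2 (1.48) and Dusp1 (1.46) were higher and Fos (-1.30) was lower. Fewer falls passed without P5 replicate 1 or without 4-month replicate 1.

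Detoxification, carrier and retinoid genes followed the rises. Of 17 antioxidant genes under NRF2 11 rose and 1 fell, led by the glutathione transferase Gsta3 (4.29) and the plasma glutathione peroxidase Gpx3 (3.89). Of 20 apolipoprotein and lipid-handling genes 13 rose and 2 fell, for example Apod (1.80), an apolipoprotein of peripheral nerve, the phospholipid transfer protein Pltp (1.71) and the oxysterol receptor Nr1h3 (LXRα, 1.93). Retinoid genes rose in 7 of 11 and fell in 1, with the retinol carrier Rbp4 (4.05) after Aldh1a1. In glycolysis and glucose uptake 11 of 20 rose and 1 fell, for example Hk1 (1.43). In mitochondrial respiration 3 of 36 rose (8.33%) and 4 fell (11.1%), with a median of -0.10. Both shares lay below those of all genes (21.5% and 17.7%), and fewer genes fell without 4-month replicate 2. Growth factors and receptors had 12 rises and 6 falls among 29, the falls (20.7%) near the 17.7% of all genes. Fgf1 (3.03) and the binding protein Igfbp6 (1.94) rose, and Igfbp2 (-2.64) fell. Of 22 ion channels and pumps 9 rose and 4 fell, the falls (18.2%) again near the share of all genes, with the sodium pump subunit Atp1b2 (2.02) and the water channel Aqp1 (1.56) higher. Of 17 genes of apoptosis and p53 4 rose (23.5%) and 2 fell (11.8%), against 21.5% and 17.7% of all genes, so the rises were near that share. Fas (1.80) was higher and Bak1 (-1.07) lower. Bcl2l1 (0.95) was called higher and read -0.19 with the mean of its probe sets.

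The P28 arrays place these changes in time. Between P28 and P5 6245 genes (50.4%) were called, 3259 higher (26.3%) and 2986 lower (24.1%) at P28, and between 4 months and P28 5024 genes (40.5%), 2788 higher (22.5%) and 2236 lower (18%) at 4 months. The P28 arrays of all genotypes have a narrower spread of values than the others (interquartile range 2.90 to 3.52, against 3.77 to 3.90), and the part of this in the calls was not tested. With dim genes left out 4448 and 3497 genes were called. With that filter 70.2% of the calls between 4 months and P28 were higher at 4 months, against 55.5% with all genes and 48.1% after quantile normalization (1941 higher and 2094 lower). Of the calls between P28 and P5 41.5% were then higher at P28, against 52.2% with all genes. Cyp2e1 read 4.49 and 4.29 at P5, 11.35 and 11.26 at P28 and 12.61 and 12.53 at 4 months, so most of its rise lay before P28. Mki67 read 10.22 and 10.44 at P5, 7.30 and 7.02 at P28 and 5.84 and 6.75 at 4 months, and Agtr2 read 10.10 and 10.25, 4.98 and 4.96 and 4.76 and 3.81 at the same ages. Thrsp was as high at P28 (10.46 and 11.56) as at 4 months, and Ucp1 at P28 (6.34 and 10.7) was called above P5, a call lost without P28 replicate 2.

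Some genes went on changing after P28. Among the 6 largest rises between P28 and 4 months were Rnase2a (6.67 and 8.73 at 4 months and 4.36 and 4.43 at P28), a ribonuclease of eosinophils whose call was lost without 4-month replicate 2, and its relative Ear3 (2.67), for which near-identical copies cannot be separated. The others were the kinase Ripk4 (2.92), Gsta3 (2.84), the P450 Cyp2f2 (2.80) and Amy1 (2.61). The largest falls were of elastin, Eln (8.43 and 7.93 at 4 months and 11.00 and 11.42 at P28, -3.03), Nrk (-2.34), the acute-phase gene Saa1 (-2.30), Gcg (-2.24), Fbn2 (-2.18) and C1qtnf6 (-2.18). The call of Gcg was lost when any of 3 of the 4 arrays was left out. Of 15 myelin genes 8 were called higher at P28 than at P5, against 26.3% of all genes, and 7 were called lower at 4 months than at P28, against 18% of all genes; the counts were not matched gene by gene.

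Whether this maturation differed from that of the other genotypes was tested as the difference between their changes from P5 to 4 months, with 2 arrays per group throughout. The changes across 12393 genes, which are not independent of one another, correlated at 0.916 with WT, 0.966 with S63del and 0.931 with Chop null. The slopes were 0.96, 0.99 and 1.01. Signs of array quality also differed by age in all 4 genotypes. The 5′ probe set of 18S ribosomal RNA read 3.92 to 4.41 in their 4-month arrays and 7.82 to 13.4 in their P5 arrays. The Gapdh 3′ minus 5′ signal was -0.042 to 2.12 at 4 months and -0.218 to -0.168 at P5. The part of these signs in the correlations was not tested. Between 4 months and P5 4557 genes (36.8%) were called within WT, 4937 (39.8%) within S63del and 4077 (32.9%) within Chop null nerve. Called in the same direction as in S63del/Chop null nerve were 3848 genes in WT, 4345 in S63del and 3578 in Chop null, and in the opposite direction 10, 0 and 12.

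The change differed from WT in 54 genes (0.436%), 29 more positive and 25 more negative in S63del/Chop null nerve, and from Chop null in 68 genes (0.549%), 31 more positive and 37 more negative. From S63del it differed in 0 genes by limma, with 111 genes at an unadjusted p under 0.05. That is a smaller share of the 12393 genes than the 0.05 due with no true difference. The median absolute difference was 0.107, under its median SE of 0.228. The model pools replicate spread over all 12 groups. The root mean square of that spread was 0.394 for Chop null P28, the largest, and 0.129 to 0.190 for the 4 groups of this comparison. So this test was strict, and its 0 calls do not show equal changes. Under 4 alternatives 1 or 2 genes were called, Car6 under each of them. Leaving out 1 array gave between 20 and 128 calls against WT and between 24 and 88 against Chop null. The lowest, 20 and 24, came without S63del/Chop null 4-month replicate 1 (24 also without Chop null 4-month replicate 1), and the highest against WT, 128, came without WT 4-month replicate 2, which leaves the array with the largest Gapdh 3′ minus 5′ signal (2.12) to stand for that group.

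In all 54 genes that differed from WT the gap between the genotypes was larger at P5 than at 4 months, with a median absolute difference of 0.127 at 4 months and 1.58 at P5. Against Chop null the same held for 68 of 68 genes, with medians of 0.0890 at 4 months and 1.35 at P5. The genotypes thus differed at P5 in these genes and lay close together at 4 months.

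**Figure D4:**
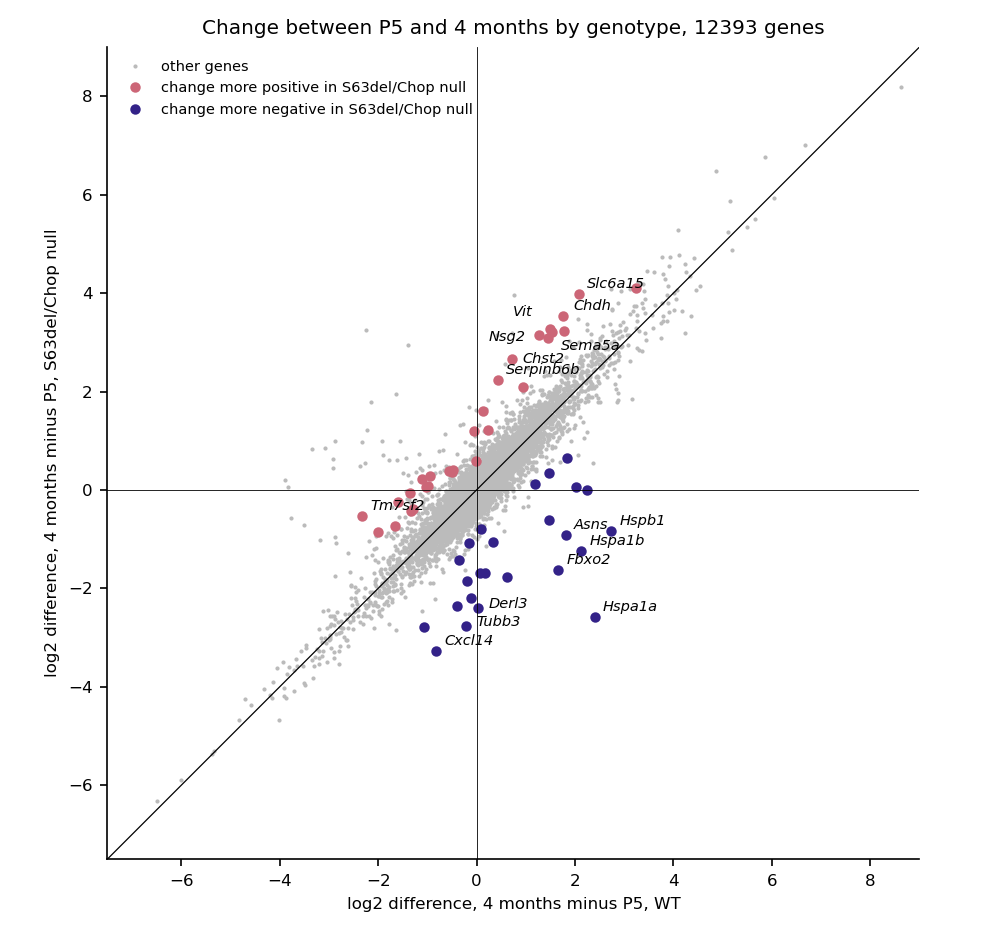
Log2 difference between 4 months and P5 in S63del/Chop null nerve (y axis) against that in WT nerve (x axis), 1 point per gene, 12393 genes; larger points mark the 54 genes whose change differed between these genotypes. Hspa1a lies at -2.58 in S63del/Chop null and 2.40 in WT nerve.

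The most negative differences of change were those of Hspa1a, Hspb1, Hspa1b and Fbxo2. Hspa1a read 8.16 and 9.0 at 4 months and 11.27 and 11.05 at P5 in S63del/Chop null nerve, against 8.6 and 8.10 at 4 months and 5.96 and 5.93 at P5 in WT nerve. It fell with age in the double mutant and rose in WT, a difference of change of -4.98 ± 0.43 (adjusted p = 5.38e-06), and of -5.15 ± 0.43 against Chop null (adjusted p = 3.53e-06). Hspb1 fell by 0.84 in S63del/Chop null nerve and rose by 2.74 in WT, where it read 12.06 and 11.81 at 4 months and 9.12 and 9.28 at P5 (-3.57 ± 0.23, adjusted p = 2.53e-07). The 2 genotypes had nearly the same level of both genes at 4 months and lay more than 3 log2 units apart at P5. In S63del nerve the changes were -2.39 for Hspa1a and -0.79 for Hspb1, near those of S63del/Chop null nerve. The matches of these promoters to GAANNTTC, the core of the heat shock element (found on either strand in 6 of 13 promoters of the heat shock list, 46.2%, and 6.69% of all promoters), are in capitals: 1 in Hspa1a (chr17:34972157-34972406, minus strand, 104 to 97 bases upstream) and 2 in Hspb1 (chr5:135887669-135887918, plus strand, 117 to 110 and 97 to 90 bases upstream).
Hspa1a: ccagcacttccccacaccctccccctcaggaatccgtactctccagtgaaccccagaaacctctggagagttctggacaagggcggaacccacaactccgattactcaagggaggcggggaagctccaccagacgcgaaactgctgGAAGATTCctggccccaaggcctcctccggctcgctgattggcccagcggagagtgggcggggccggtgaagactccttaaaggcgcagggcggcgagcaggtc
Hspb1: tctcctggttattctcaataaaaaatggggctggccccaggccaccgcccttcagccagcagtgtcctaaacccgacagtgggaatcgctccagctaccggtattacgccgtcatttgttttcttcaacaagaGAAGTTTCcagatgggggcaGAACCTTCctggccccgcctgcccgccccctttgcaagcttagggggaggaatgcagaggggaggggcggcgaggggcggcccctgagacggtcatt

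Fbxo2, a ubiquitin ligase subunit that recognises glycoproteins, read 6.09 and 6.12 at 4 months and 7.80 and 7.68 at P5 in S63del/Chop null nerve, against 6.08 and 6.24 at 4 months and 4.81 and 4.19 at P5 in WT nerve (-3.30 ± 0.25, adjusted p = 1.74e-06). Asns read 8.65 and 8.45 at 4 months and 6.73 and 6.76 at P5 in WT nerve, so that its change differed by -2.72 ± 0.21 (adjusted p = 1.74e-06). Chac1 rose by less than 1 log2 unit in WT nerve, 5.57 and 5.31 at 4 months and 4.90 and 4.75 at P5, and fell in the double mutant (-2.38 ± 0.25, adjusted p = 7.05e-05). Both are ATF4 targets, and their promoters hold TGATGNAA, the composite element of C/EBP and ATF factors, on either strand in 7 of 24 promoters of the ATF4 list (29.2%) and 3.45% of all promoters. The match is in capitals in Asns (chr6:7693210-7693459, minus strand, 23 to 16 bases upstream) and Chac1 (chr2:119350992-119351241, plus strand, on its reverse strand, 193 to 186 bases upstream).
Asns: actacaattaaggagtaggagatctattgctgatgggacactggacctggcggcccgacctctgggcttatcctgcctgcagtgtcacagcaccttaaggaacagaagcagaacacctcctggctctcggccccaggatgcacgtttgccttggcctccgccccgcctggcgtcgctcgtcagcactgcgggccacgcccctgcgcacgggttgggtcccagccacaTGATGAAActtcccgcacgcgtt
Chac1: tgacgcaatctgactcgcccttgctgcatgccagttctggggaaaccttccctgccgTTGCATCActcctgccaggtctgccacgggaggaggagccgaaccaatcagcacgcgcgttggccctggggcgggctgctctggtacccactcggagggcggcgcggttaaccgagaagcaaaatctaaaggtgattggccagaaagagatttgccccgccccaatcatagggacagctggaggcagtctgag

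Derl3, which moves misfolded proteins out of the ER, read 6.36 and 6.65 at 4 months and 8.90 and 8.91 at P5 in S63del/Chop null nerve, against 6.43 and 6.28 at 4 months and 6.25 and 6.40 at P5 in WT nerve (-2.42 ± 0.33, adjusted p = 0.0015). The 4 WT arrays lay within 0.2 of one another, near the 4-month arrays of the double mutant, and its P5 arrays stood far above them. Sdf2l1 (-2.07 ± 0.28), the ER stress gene Creld2 (-1.67 ± 0.32) and Pdia4 (-1.08 ± 0.17) also differed from WT, and 4 of 25 ER chaperone genes, 2 of 25 degradation genes, 4 of 28 ATF4 targets and 3 of 16 heat shock genes had a more negative change than in WT, with none more positive. Without S63del/Chop null 4-month replicate 1 these counts were 1, 2, 3 and 3. The promoters of Derl3 (chr10:75893148-75893397, plus strand) and Creld2 (chr15:88819396-88819645, plus strand) each hold the ER stress response element (CCAAT, 9 bases of any kind, then CCACG, searched on both strands) on the reverse strand, 156 to 138 and 126 to 108 bases upstream, shown in capitals. The element was found in 8 of 22 promoters of the ER chaperone list (36.4%) and in 2 of 21 of the degradation list (9.52%). Of all promoters 0.113% hold it.
Derl3: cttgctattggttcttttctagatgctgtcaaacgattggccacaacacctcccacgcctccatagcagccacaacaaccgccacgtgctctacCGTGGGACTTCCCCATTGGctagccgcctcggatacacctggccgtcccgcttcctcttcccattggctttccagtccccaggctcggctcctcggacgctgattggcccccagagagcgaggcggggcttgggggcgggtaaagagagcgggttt
Creld2: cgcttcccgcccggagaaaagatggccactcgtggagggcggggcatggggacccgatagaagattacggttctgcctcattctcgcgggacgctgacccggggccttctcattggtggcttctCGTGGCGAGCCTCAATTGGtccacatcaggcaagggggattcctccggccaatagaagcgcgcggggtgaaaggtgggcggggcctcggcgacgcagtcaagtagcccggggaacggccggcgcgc

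The axonal and neuronal tubulin Tubb3 (4.68 and 4.71 at 4 months and 7.47 and 7.46 at P5 in S63del/Chop null nerve, against 4.82 and 4.38 at 4 months and 5.10 and 4.55 at P5 in WT nerve) and the chemokine Cxcl14 (-2.45 ± 0.43) also had a more negative change, that of Tubb3 by -2.55 ± 0.29 (adjusted p = 2.54e-04). The Cxcl14 call was lost without any one of 4 single arrays. Against Chop null the hydrolase Uchl1 was among the 8 most negative (-2.80 ± 0.43, adjusted p = 0.0034).

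The leading genes with a more positive change were lower at P5 in the double mutant than in WT and near the WT level at 4 months. Chst2, a carbohydrate sulfotransferase, read 8.95 and 9.07 at 4 months and 6.42 and 6.29 at P5 in S63del/Chop null nerve, against 8.78 and 9.01 at 4 months and 8.30 and 8.05 at P5 in WT nerve (1.94 ± 0.24, adjusted p = 5.88e-04). Chdh, choline dehydrogenase, read 9.07 and 8.99 at 4 months and 5.66 and 5.35 at P5, against 8.95 and 9.39 at 4 months and 7.44 and 7.41 at P5 in WT nerve (1.77 ± 0.21, adjusted p = 3.20e-04). Serpinb6b, a serine protease inhibitor, read 8.63 and 8.49 at 4 months and 6.10 and 6.56 at P5, against 8.67 and 8.65 at 4 months and 8.36 and 8.11 at P5 in WT nerve (1.80 ± 0.25, adjusted p = 0.0016). In all 3 the 4-month arrays of both genotypes lie together and the P5 arrays lie apart. The amino acid transporter Slc6a15 (1.90 ± 0.36), Nsg2 (1.88 ± 0.33), Vit (1.78 ± 0.30) and the semaphorin Sema5a (1.68 ± 0.24) were called with all arrays; the first 3 lost the call under several of the alternatives that leave out 1 array, and Sema5a with the mean of its probe sets (1.61). S100b rose by 2.09 in S63del/Chop null and by 0.94 in WT nerve (1.14 ± 0.17, adjusted p = 0.0035).

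Lipid synthesis genes were part of this group. Cholesterol synthesis genes had a median change of -0.20 in S63del/Chop null nerve, against -0.46 in S63del, -1.25 in Chop null and -1.28 in WT nerve, and 6 of 19 had a more positive change than in WT and 8 of 19 than in Chop null. Tm7sf2, a sterol reductase, read 8.09 and 7.39 at 4 months and 8.36 and 8.18 at P5 in S63del/Chop null nerve, against 7.79 and 8.0 at 4 months and 10.27 and 10.15 at P5 in WT nerve (1.79 ± 0.28, adjusted p = 0.0057), a call lost without WT 4-month replicate 1. Mvd (1.15 ± 0.24) and Mvk (0.92 ± 0.19) belonged to the same group. Lss read 8.05 and 8.68 at 4 months and 10.16 and 10.07 at P5 in Chop null nerve and differed from it by 2.04 ± 0.40, a call lost without any one of 6 single arrays. Without S63del/Chop null 4-month replicate 1, the array with the brown fat signal, the median difference of change of the 19 cholesterol genes was 0.72 from WT and 0.64 from Chop null, against 0.92 and 0.89 with all arrays. Most of the cholesterol calls were then lost. The total of calls over all genes also dropped when most other single arrays were left out, and the part of brown fat was not tested. Of 17 fatty acid genes 2 differed from WT and 3 from Chop null with all arrays. These calls were lost without S63del/Chop null 4-month replicate 1, where the median differences were 0.285 and 0.319, against 0.80 and 0.79 with all arrays.

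**Figure D5:**
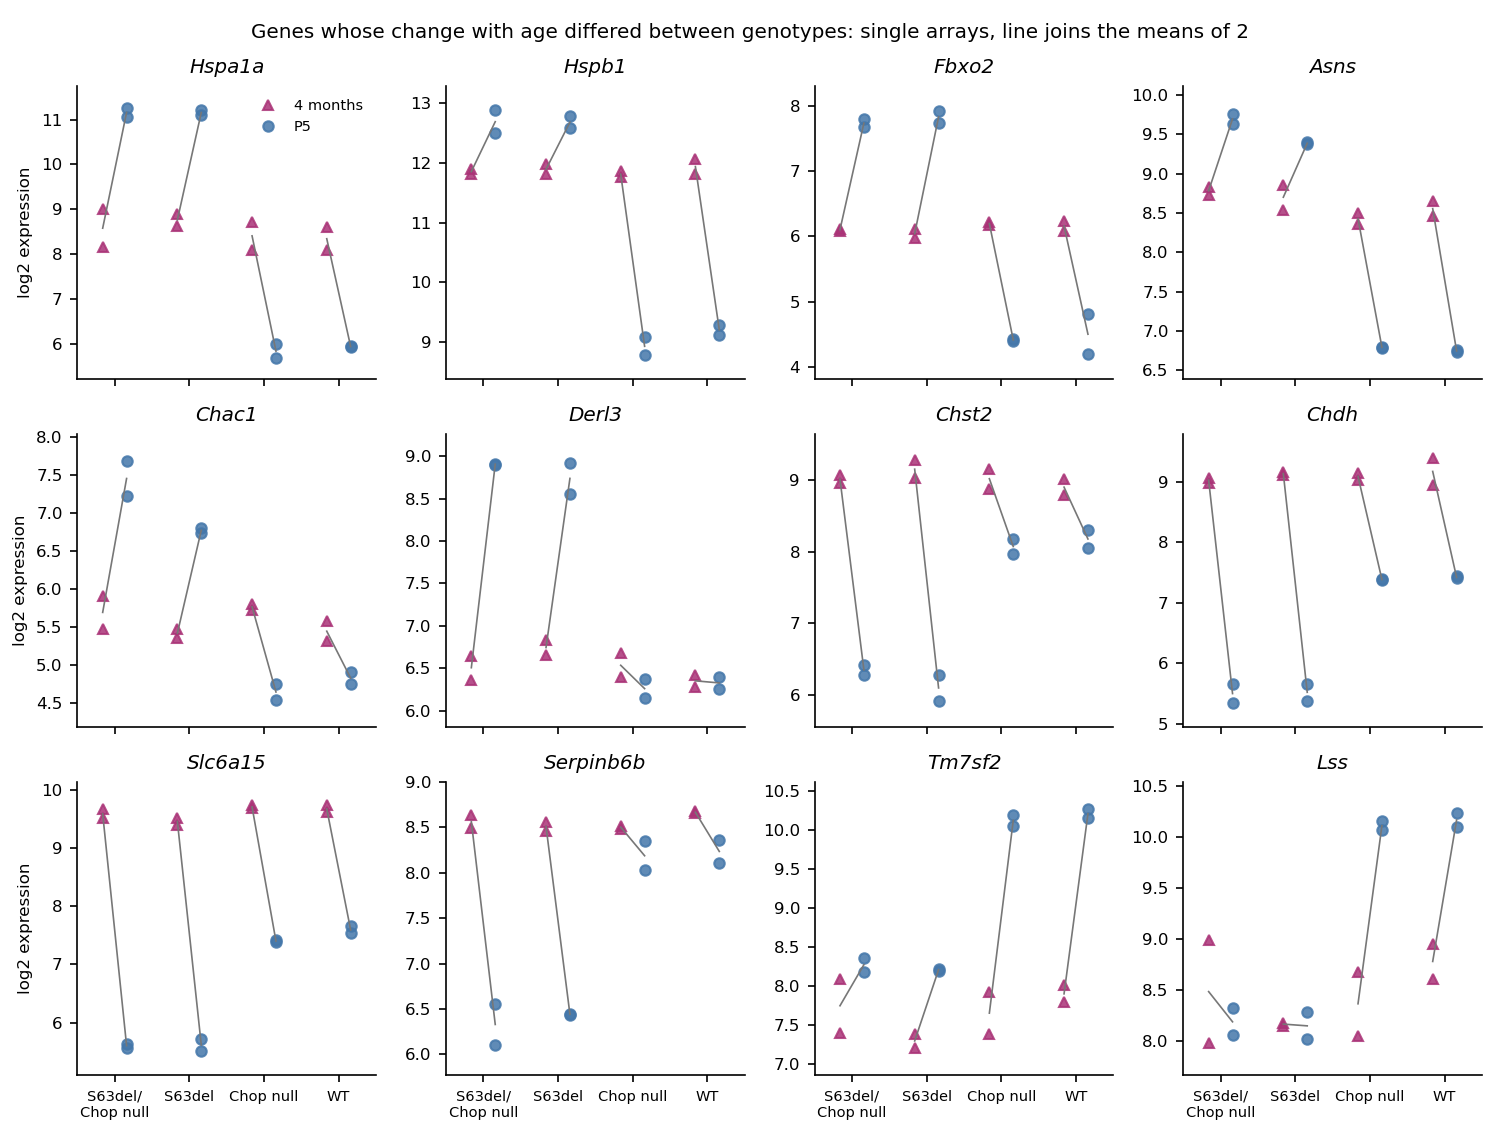
Log2 expression (y axes) of 12 genes whose change with age differed between S63del/Chop null and WT or Chop null nerve, for 4 genotypes; triangles 4 months, circles P5, 1 point per array, and a line joins the means of 2 arrays. In each panel the 4-month points of the genotypes lie closer together than the P5 points do, for Chst2 at 8.95 and 9.07 in S63del/Chop null and 8.78 and 9.01 in WT nerve at 4 months.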

How the data were processed

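The log2 expression values of 22690 probe sets per array were used as deposited by the authors. Their log scale was inferred from their range. How the arrays were summarised and normalized is not given in the sources that were used. By the platform annotation 20380 probe sets have a single gene symbol, 691 have more, 1555 have none, and 64 serve as controls; only the first kind was used. Genes with several probe sets (4956) were read from the one with the highest mean over 24 arrays, leaving 12393 genes; 182 genes have probe sets called in opposite directions. Some genes are not reported here.

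Group means of all 24 arrays (12 groups) were fitted with limma 3.58.1 (R 4.3.3), which leaves 12 residual degrees of freedom; comparisons are contrasts of those means, adjusted by Benjamini-Hochberg over all genes, threshold 0.05. The difference between genotypes is the contrast of their changes with age. The data.table package (1.17.8) and pandas 2.3.3 in Python 3.11.15 handled the values, and figures with matplotlib 3.10.9. Simulated data with known changes were used to test this model. They had independent noise and far fewer changed genes than were called here, so they cannot vouch for these calls.

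The members and the 46 gene lists (897 genes measured) were chosen with earlier results of these data known. Some genes, such as Slc2a1, Scd1, Aldh1a1 and Kcnj10, belong to more than 1 list, so the counts of the lists are not independent results. Named are the 15 largest rises and falls whose arrays do not overlap, 8 each way for differences between genotypes, 6 each way for comparisons with P28, up to 4 members per list by p, and a fixed set of Schwann cell and stress genes; other genes, such as the list members that moved against their list and those shared with S63del comparisons, were named after their values were seen. Promoters, 250 bases upstream, are RefSeq's on GRCm38.p6. In the motif shares of a list each gene counts once, with a match in any of its promoter entries. The shares over all promoters count every entry.

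Alternatives were quantile normalization, the mean of a gene's probe sets, every probe set fitted, dim genes left out (below the 40th percentile), the 16 arrays of P5 and 4 months, S63del/Chop null arrays only, the 2 most deviating arrays left out (WT 4-month replicate 1 and Chop null P28 replicate 2), weights per array, limma's trend and robust options together, a replicate block, and each array left out in turn.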

Additional observations from a re-analysis of the deposited data

Results flagged for a closer look

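The following genes are given again because their change from P5 to 4 months differed between S63del/Chop null nerve and another genotype in the direct test of that difference (limma, 2 arrays per group). Values are the change in S63del/Chop null nerve minus that in the other genotype, on the log2 scale. No explanation was weighed for them.

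Against WT the 8 most negative were Hspa1a (-4.98), Hspb1 (-3.57), Hspa1b (-3.38), Fbxo2 (-3.30), Asns (-2.72), Tubb3 (-2.55), Cxcl14 (-2.45) and Derl3 (-2.42), and the 8 most positive Chst2 (1.94), Slc6a15 (1.90), Nsg2 (1.88), Serpinb6b (1.80), Tm7sf2 (1.79), Vit (1.78), Chdh (1.77) and Sema5a (1.68). Of these 16 genes 10 were called under every alternative in which they were fitted. Fbxo2 and Tubb3, among the 10, were not fitted when dim genes were left out.

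Against Chop null the 8 most negative were Hspa1a (-5.15), Hspb1 (-3.72), Hspa1b (-3.53), Fbxo2 (-3.42), Chac1 (-2.88), Uchl1 (-2.80), Tubb3 (-2.68) and Derl3 (-2.67), and the 8 most positive Lss (2.04), Tm7sf2 (1.95), Serpinb6b (1.92), Chdh (1.82), Nsg2 (1.77), Sema5a (1.75), Chst2 (1.71) and Slc6a15 (1.68). Of these 16 genes 12 were called under every alternative in which they were fitted. Fbxo2, Chac1 and Tubb3, among the 12, were not fitted when dim genes were left out. Both comparisons share the S63del/Chop null arrays.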

How the results depend on the processing

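The count of genes that differed between 4 months and P5 in S63del/Chop null nerve lay between 4067 and 5942 under the alternatives that keep all 4 arrays of these groups, and between 3782 and 4033 with 1 of them left out, against 4861 as reported. The count between P28 and P5 was 4448 to 7533 and, with 1 array left out, 4496 to 5185. The count between 4 months and P28 was 3497 to 6526, the lowest with dim genes left out, and 3313 to 3523 with 1 array left out, the lowest without 4-month replicate 1. Of 202 named genes called between 4 months and P5, 184 were called under every alternative in which they were fitted. Genes below the dim-gene filter were not fitted with that filter. With the mean of all probe sets the difference read -0.0104 for Tef, -0.193 for Bcl2l1 and -0.20 for Mbp.

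The count of genes whose change differed from WT was 43 to 76, the lowest without the 2 deviating arrays (1 of them WT 4-month replicate 1), and 20 to 128 with 1 array left out. Against Chop null it was 131 without 2 deviating arrays, 233 with array weights, 51 to 95 under the other alternatives, and 24 to 88 with 1 array left out. Against S63del it was 1 with quantile normalization, 1 with the 16 arrays of P5 and 4 months, 1 without 2 deviating arrays, 2 with array weights, 0 otherwise, and 0 to 2 with 1 array left out. The genes called there were Car6, Mgl2 and, when 1 array was left out, Krtap8-1, Krtap16-3, Tnmd, Elovl3, Retnla and Mmp12, all named after their values were seen. The causes were not tested.

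The replicate numbers were not taken to pair the samples: deviations of same-numbered 4-month and P5 arrays correlated over genes at 0.022 in S63del/Chop null, -0.136 in S63del, 0.237 in Chop null and 0.074 in WT nerve. With the replicate number as a block, 4804 genes were called between 4 months and P5, 46 differed in change from WT, 0 from S63del and 58 from Chop null. With 2 arrays per group, small differences cannot be told from replicate spread, and signals near 4 on the log2 scale lie at the lower edge of the arrays.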
